A study of Mus musculus with 12 samples.

Results

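Gzma, Gzmb, Gzmm, Prf1, Nkg7, Fasl and Ctsw encode products of the cytolytic granule and a death ligand of killer lymphocytes. The rows with these 7 symbols were taken from the 32285 genes of a matrix of brain T cells and followed across CD8, CD4 and γδ T cells, clone size and 6 pools of mice. All mice were 9-month-old females, and the CD4+, CD8+ and γδ+ T cells sorted from their half-brains after perfusion were read out pool by pool as 5′ RNA and as receptor sequences.

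The 5XFAD pools came from mice hemizygous for the 5XFAD amyloid transgenes, from 4 mice in 5XFAD-1 and 3 mice in 5XFAD-2. The PS-5X pool came from 4 bigenic mice that carried both the 5XFAD and the PS19 transgenes. The WT pools came from transgene-free littermates, 10 mice in WT-1 and 8 mice in WT-2, and the PS19 pool from 4 mice hemizygous for mutant human MAPT under the mouse prion protein promoter. All 4 genotypes came from crosses of a C57BL6 congenic line with a B6C3F1/J line, so the genetic background was mixed and shared. 5XFAD-2 and WT-2 shared a second sequencing run. A pool is the unit of replication here, mice within a pool cannot be told apart, and PS-5X and PS19 had 1 pool each.

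Killer lymphocytes store perforin and granzymes in secretory lysosomes and release them into the contact zone with a target cell. Perforin, the product of Prf1, opens pores through which granzymes reach the target's cytosol. Granzymes are serine proteases: granzyme A (Gzma) cuts after basic residues, granzyme B (Gzmb) cuts after aspartate and starts apoptosis, and granzyme M (Gzmm) cuts after methionine or leucine and is best known from NK cells. Nkg7 is a granule membrane protein needed for full degranulation, and Ctsw encodes cathepsin W, a papain-family protease of CD8 T and NK cells. Fasl encodes the ligand of the death receptor Fas, a killing route that does not need perforin.

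On the RefSeq annotation of build GRCm38.p6, Fasl lies at chr1:161780691-161788495, Nkg7 at chr7:43437138-43438246 and Prf1 at chr10:61297751-61304684. Gzmm lies at chr10:79689020-79695261, Gzma at chr13:113093824-113100981, Gzmb at chr14:56258836-56262334 and Ctsw at chr19:5465043-5468628. Promoters are shown for the 3 granzyme genes and Prf1, because the results below set Gzmm apart from the other 3. Each run is the 250 bases before the start in the RefSeq promoter table, read 5′ to 3′ on the gene's strand. The start listed there for Prf1 lies inside the gene span given above, so the end of its window lies within that span. The windows are chr13:113100982-113101231 on the minus strand for Gzma, chr14:56262335-56262584 on the minus strand for Gzmb, chr10:79688770-79689019 on the plus strand for the first of the 2 listed Gzmm starts, and chr10:61297586-61297835 on the plus strand for Prf1. Capitals mark matches on either strand to a RUNX core (TGTGGT or its complement), an AP-1 element (TGANTCA) or a CRE-like core (TGACGT).
Gzma: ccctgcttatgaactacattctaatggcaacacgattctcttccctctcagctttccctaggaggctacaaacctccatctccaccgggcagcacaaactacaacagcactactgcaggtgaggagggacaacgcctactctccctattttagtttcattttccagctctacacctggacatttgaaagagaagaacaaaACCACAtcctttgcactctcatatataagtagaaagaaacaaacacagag
Gzmb: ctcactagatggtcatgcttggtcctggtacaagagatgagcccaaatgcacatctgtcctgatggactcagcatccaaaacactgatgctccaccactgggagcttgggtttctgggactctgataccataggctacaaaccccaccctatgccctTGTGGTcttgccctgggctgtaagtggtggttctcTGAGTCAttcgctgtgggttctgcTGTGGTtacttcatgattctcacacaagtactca
Gzmm: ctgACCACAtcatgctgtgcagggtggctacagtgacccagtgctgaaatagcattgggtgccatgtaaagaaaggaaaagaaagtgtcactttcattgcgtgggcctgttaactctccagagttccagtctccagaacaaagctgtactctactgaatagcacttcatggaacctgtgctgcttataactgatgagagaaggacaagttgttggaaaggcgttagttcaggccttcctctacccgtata
Prf1: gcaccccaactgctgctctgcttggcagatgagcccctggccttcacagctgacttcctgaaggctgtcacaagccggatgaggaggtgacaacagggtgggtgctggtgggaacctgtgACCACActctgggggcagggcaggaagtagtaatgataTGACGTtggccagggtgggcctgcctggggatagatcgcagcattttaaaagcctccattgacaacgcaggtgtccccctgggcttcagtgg
The RUNX core was found once in the Gzma, Gzmm and Prf1 windows and in 2 places in the Gzmb window. It occurs in 14.0% of all 32851 promoter windows of the same length. The AP-1 element occurred in the Gzmb window (6.75% of all windows) and the CRE-like core in the Prf1 window (6.47%). A T-box core (GGTGTG, 16.3% of all windows) was in none of the 4 windows shown. It matched in the windows of Nkg7, Fasl and the second Gzmm start. No window was listed for Ctsw. These matches describe the letters of the windows only.

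After filters 17373 cells remained, of which each pool gave 464 to 4010 CD8, 153 to 1069 CD4 and 41 to 299 γδ T cells. Summed per pool, they held 3739746 to 25575922 UMIs (unique molecular identifiers, counts of captured RNA molecules) in CD8, 1070407 to 5608603 in CD4 and 291843 to 1647636 in γδ T cells. Levels below are CPM, a gene's UMIs in the sum normalised to its depth. Those called scaled CPM are adjusted for composition by TMM. Levels are compared within a gene and not between genes. CD8, CD4 and γδ T cells carried their own lineage markers: the summed Cd8a and Cd8b1 level was 1811 to 2261 CPM in CD8, 55.0 to 167 CPM in CD4 and 19.1 to 72.1 CPM in γδ T cells. In WT-1, 166 of 555 cells with both receptor chains (29.9%) carried receptors found in another pool. 58 receptors were shared between 5XFAD-1 and WT-1 and 41 between WT-1 and PS19, while between 1 and 23 barcodes were shared per pair of pools. The receptors shared by 5XFAD-1 and WT-1 were carried by 563 cells of 5XFAD-1 and 109 of WT-1. Those shared by WT-1 and PS19 were carried by 54 cells of WT-1 and 163 of PS19. Cells of any pool with a receptor found in another pool were left out as an alternative, so mostly cells outside WT-1. This was done in comparisons with CD4 T cells and in expanded against singleton CD8 T cells. Results that change there are given both ways. The other comparisons were not run without them, among them γδ against CD8 T cells, large against small CD8 clones and amyloid in CD8 T cells.

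In γδ T cells 7 of 7 genes were lower than in CD8 T cells of the same pools, where 51.6% of all genes were called in either direction and 25.9% were lower. In CD8 T cells 7 of 7 genes were higher than in CD4 T cells, where 29.3% of all genes were called and 14.5% were higher. The means ran from γδ, the lowest, over CD4 to CD8 for every gene. Pools were compared within themselves (edgeR's quasi-likelihood test, Benjamini-Hochberg adjusted p over all 10932 genes tested, threshold 0.05). Some genes are said below not to overlap between classes or clone groups, or to go the same way in all pools. The share of all genes that do so is not given here, so such statements are a description only.

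Nkg7 showed the class difference most plainly. It reached 48.4, 64.4, 42.2, 18.8, 78.9 and 30.2 scaled CPM in γδ T cells of 5XFAD-1, 5XFAD-2, PS-5X, WT-1, WT-2 and PS19, pools that keep this order in every list below. In CD8 T cells it had 1946, 1686, 1787, 1503, 1601 and 1374 scaled CPM, and in CD4 T cells 1024, 301, 419, 515, 287 and 257. The classes did not overlap, and 5XFAD-1 was highest in both CD8 and CD4. Fasl had 47.6, 52.8, 50.1, 12.6, 30.9 and 28.6 scaled CPM in γδ, 354, 317, 392, 285, 308 and 252 in CD8 and 249, 124, 244, 168, 144 and 112 in CD4 T cells. Here too no γδ pool reached a CD4 pool and no CD4 pool reached a CD8 pool.

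Of the 3 classes, CD8 T cells had the highest Gzmm level. γδ T cells gave 0, 3, 0, 0, 3 and 0 Gzmm UMIs in all. In CD8 T cells Gzmm had 37.0, 45.5, 24.7, 50.9, 59.3 and 57.5 scaled CPM, and CD4 T cells had 2.73, 2.81, 0.553, 2.80, 1.84 and 1.26, from 3 to 8 UMIs a pool. Every CD8 pool stood above every pool of the other classes. A cluster of NK-marker cells outside the 3 classes, described below, had 51.7 CPM of Gzmm. Prf1 averaged 12.7 ± 7.46 scaled CPM in γδ, 101 ± 9.33 in CD8 and 22.2 ± 7.48 in CD4 T cells (SD, n = 6 pools each). Ctsw averaged 197 ± 63.6 scaled CPM in γδ, 736 ± 83.3 in CD8 and 290.4 ± 90.4 in CD4 T cells. γδ and CD4 pools overlapped for Prf1 and Ctsw, and CD8 pools overlapped with neither.

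Gzma and Gzmb varied most between pools. Gzma had 324, 93.7, 115, 283, 681 and 178 scaled CPM in CD8 T cells and 774, 0, 47.0, 103, 7.09 and 2.21 in CD4 T cells, so 5XFAD-1 was the single pool where CD4 T cells stood above CD8. γδ T cells gave 10, 0, 2, 1, 4 and 0 Gzma UMIs. Gzmb had 233, 131, 221, 145, 309 and 103 scaled CPM in CD8 and 402, 6.55, 159, 157, 20.7 and 25.3 in CD4 T cells. CD4 T cells were above CD8 in 5XFAD-1 and WT-1 for Gzmb. γδ T cells had between 0 and 24.0 scaled CPM of Gzmb.

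**Figure D1:**
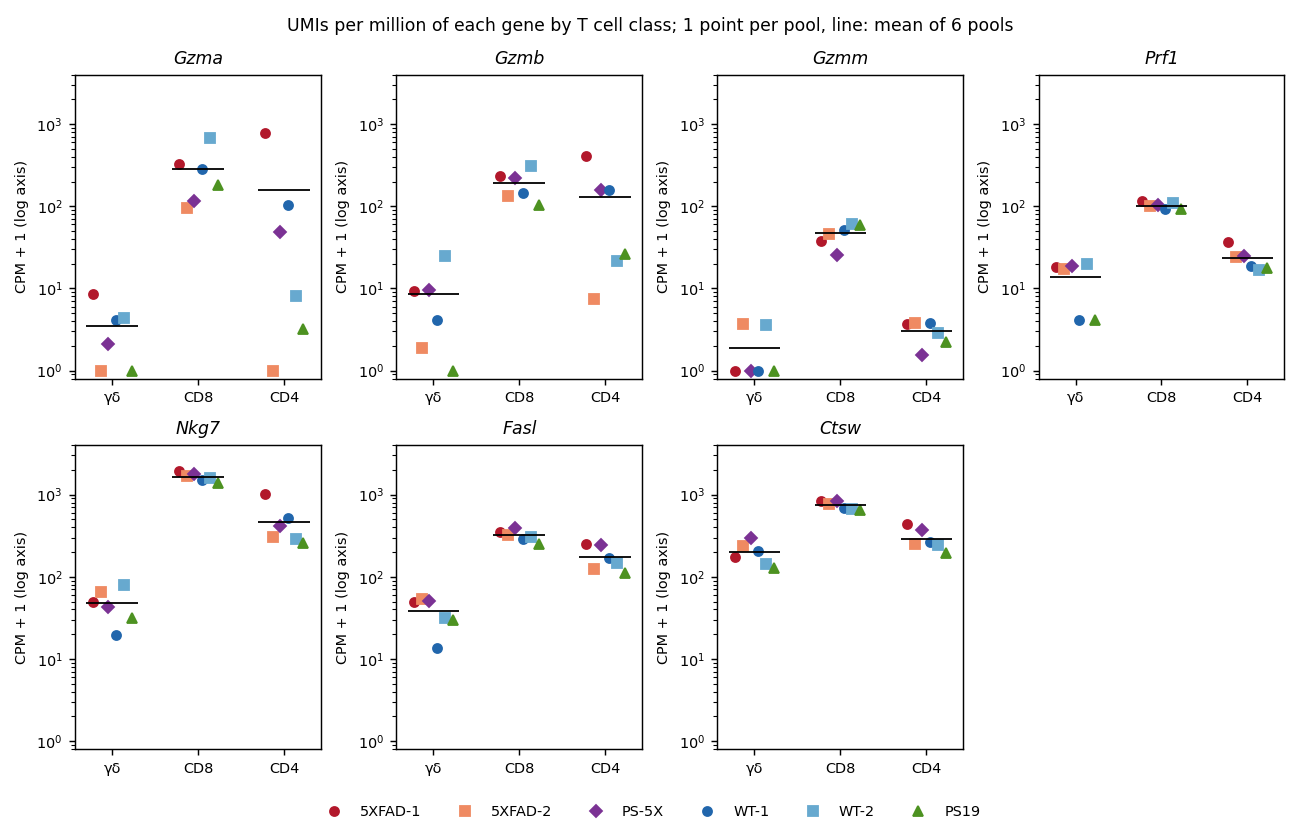
Scaled CPM plus 1 on a log axis for the 7 genes in γδ, CD8 and CD4 T cells, 1 point per pool and a line at the mean of 6 pools. CD8 points stand above all γδ points for each gene, while the CD4 points of Gzma spread from 0 in 5XFAD-2 to 774 in 5XFAD-1.

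In γδ against CD8 T cells the median log2 change was -4.83 over the 7 genes and -0.03 over all genes. Gzmm fell by 5.45 ± 0.31 (SE) on the log2 scale (adjusted p = 2.71e-12), Nkg7 by 5.09 ± 0.25 (1.71e-13), Fasl by 3.04 ± 0.14 (6.75e-14), Prf1 by 2.80 ± 0.17 (5.3e-12) and Ctsw by 1.96 ± 0.12 (1.08e-11). Gzma fell by 7.62 ± 1.26 (adjusted p = 2.65e-05) and Gzmb by 4.83 ± 0.74 (1.01e-05), values that rest on few γδ UMIs. When classes were set by lineage UMIs of single cells in place of clusters, the Gzmb difference was -1.07 and not past the threshold (adjusted p = 0.172). The other 6 genes kept their call with smaller differences, at -2.84 for Gzma, -1.31 for Gzmm, -2.02 for Nkg7, -1.71 for Fasl, -1.51 for Prf1 and -0.99 for Ctsw.

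The γδ class held 925 cells and was led by Cd163l1, Il17a and Tcrg-V6, genes of IL-17-producing γδ T cells. Of the cells picked by lineage UMIs as γδ, 70.8% lay in that cluster. Another 18.3% lay in an unnamed cluster led by Fcer1g, Ncr1 and Klra7, genes of NK cells. In that unnamed cluster Cd3e was detected in 92.8% of cells, Trdc in 41.9% and Cd8a in 33.7%. Ncr1 was detected in 32.5% and Tyrobp in 42.4%, so the word NK-marker describes its leading genes only. The 90 cells in the unnamed cluster had 340.2 CPM of Gzmb, 1696 of Nkg7 and 74.2 of Gzmm, against 9.42 CPM of Gzmb, 55.0 of Nkg7 and 1.01 of Gzmm in the whole γδ class. The low γδ values are thus those of the cluster led by Cd163l1, Il17a and Tcrg-V6.

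In γδ against CD4 T cells 6 of 7 genes fell (47.9% of all genes were called, 23.3% lower). Nkg7 fell by 3.11 ± 0.25 on the log2 scale (adjusted p = 1.14e-09), Fasl by 2.11 ± 0.15 (1.03e-10), Ctsw by 0.56 ± 0.12 (0.000765) and Prf1 by 0.59 ± 0.22 (0.0316). Gzmb fell by 3.73 ± 0.80 (adjusted p = 0.000572) and Gzma by 5.46 ± 1.46 (0.0038), whereas Gzmm had -0.77 ± 0.67 (0.361). Without the CD4 cluster marked by Gzma that is described below, Gzma had -2.65 (adjusted p = 0.0942). The Prf1 call held under 4 of 13 other settings and was lost without cells that carry another pool's receptor (-0.40, adjusted p = 0.107). With classes set by lineage UMIs, Gzmb had -0.09 (adjusted p = 0.940) and Nkg7 -0.54 (0.0785), neither past the threshold, while Gzmm rose (2.79, 0.000838).

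In CD8 against CD4 T cells the median log2 change was 1.98 over the 7 genes and 0.02 over all genes. Gzmm rose by 4.68 ± 0.19 on the log2 scale (adjusted p = 5.94e-14), Prf1 by 2.21 ± 0.11 (3.8e-12), Nkg7 by 1.98 ± 0.18 (3.6e-08), Ctsw by 1.40 ± 0.11 (2.71e-09) and Fasl by 0.93 ± 0.10 (2.61e-07). These 5 were higher in 6 of 6 pools and kept their call under all 14 other settings. Gzma rose by 2.16 ± 0.62 (adjusted p = 0.0114, higher in 5 of 6 pools) and Gzmb by 1.10 ± 0.41 (0.0470, higher in 4 of 6 pools). Gzma lost its call without WT-2 (1.39, adjusted p = 0.0627), without PS19 (1.75, 0.0591) and with classes set by lineage UMIs (0.69, 0.395). The Gzmb call held under 6 of 14 other settings. Without the Gzma-marked CD4 cluster, Gzma had 4.04 (adjusted p = 1.3e-07) and Gzmb 2.27 (3.81e-06). That cluster was picked because Gzma is among its leading genes, and it was left out of CD4 only. Both differences were thus bound to grow, and these p-values are no support for them.

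To compare shares of cells, each cell was thinned to 2000 UMIs. The CD4 cluster led by Igfbp4, chosen after its values were seen as cells low in most of these genes, is given beside each share. With thinning, Nkg7 was detected in 5.99% of γδ, 85.8% of CD8 and 29.7% of CD4 T cells (means over 6 pools), beside 1.30% of the Igfbp4 cluster. Ctsw was detected in 27.2% of γδ, 69.6% of CD8 and 30.3% of CD4 T cells, beside 10.4%. Fasl was detected in 5.88% of γδ, 40.3% of CD8 and 23.7% of CD4 T cells, beside 5.64%. Prf1 was detected in 3.29% of γδ, 17.9% of CD8 and 3.95% of CD4 T cells, beside 5.44% of the Igfbp4 cluster. The Prf1 shares of γδ and CD4 T cells were thus below that of the Igfbp4 cluster and the Fasl share of γδ T cells close to it. That cluster did not lack Prf1, with a mean of 26.6 CPM of Prf1 over pools, against 11.7 CPM in the CD4 cluster led by Tnfrsf4 and Cd40lg. Median depth was 6321 UMIs per cell in γδ, 6325 in CD8, 5374 in CD4 and 5501 in the Igfbp4 cluster, and thinning left out 45 γδ, 203 CD8 and 91 CD4 cells.

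After thinning, each of the 3 granzymes was detected in a minority of CD8 T cells. Gzmb was detected in 13.7% of CD8 T cells (9.68% to 19.8% by pool, 20.4% unthinned), Gzma in 7.58% (4.10% to 15.1%, 10.3% unthinned) and Gzmm in 5.22% (3.30% to 6.99%, 11.6% unthinned). The Igfbp4 cluster gave 0.282% for Gzmb, 0.163% for Gzma and 0.0508% for Gzmm. Unthinned, Prf1 was detected in 43.5% of CD8 T cells, so these shares depend on depth. Counted over all cells, at least 4 of the 7 genes were detected in 0.227% of γδ, 17.5% of CD8 and 3.97% of CD4 T cells. By pool these shares ran from 0% to 0.592%, 12.6% to 23.6% and 0.282% to 14.2%. None of the 7 was detected in 62.7% of γδ, 5.93% of CD8 and 49.2% of CD4 T cells, again over all cells. By pool these ran from 53.0% to 77.5%, 1.92% to 9.01% and 34.1% to 58.5%.

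Gzma and Gzmb were often found in the same cells, while Gzmm was about as frequent with Gzma as without it. Of thinned CD8 T cells with a Gzma UMI, 53.2% also had a Gzmb UMI (37.8% to 74.2% by pool), against 10.1% of cells without Gzma (7.13% to 13.7%). The ranges did not overlap. Of cells with a Gzma UMI, 4.37% had Gzmm (1.85% to 6.36% by pool), against 5.26% of cells without (3.25% to 7.20%), and these ranges overlapped. Of cells with a Gzmm UMI, 10.8% had Gzmb and 34.1% had Fasl, against 13.8% and 40.6% of cells without Gzmm. Prf1 was detected in 22.7% and Nkg7 in 89.9% of cells with Gzmm, against 17.6% and 85.5% of cells without. For all 4 genes the ranges over pools overlapped.

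Over CD8 clusters, built without these 7 genes, the levels fell into 3 patterns. Gzma peaked in the cluster led by Gzma, S1pr5 and Cx3cr1, genes of circulating effector cells, with a mean of 2584 CPM (1651 to 4926 over pools). It came next in the cluster led by the chemokine genes Ccl3 and Ccl4, with 447 CPM, where pools ranged widely from 65.3 in PS19 to 1107 in 5XFAD-1. It stayed at 1.11 to 3.62 CPM in the Ccr7 cluster, the Dapl1 cluster and the Gzmm cluster. Gzmb was also highest in the S1pr5 cluster, with 749 CPM. Next for Gzmb came the cluster led by the interferon-response genes Cxcl10 and Ifit3, with 440.0 CPM, and then the Ccl3 cluster, with 382 CPM.

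Gzmm had its own place. Its mean was 158 CPM (100.1 to 219.9 over pools) in the cluster led by Gzmm, Fcgrt and Pde2a, and 66.8 CPM in the S1pr5 cluster. It was at 2.38 CPM in the Ccl3 cluster and 2.88 CPM in the Lag3 cluster, the clusters with the highest Fasl. The Gzmm cluster had 3.62 CPM of Gzma and 9.26 of Gzmb. It made up 10.8%, 12.4%, 9.70%, 14.9%, 12.1% and 16.2% of CD8 T cells in the pools' order.

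Nkg7 and Fasl were high in the Lag3 and Ccl3 clusters. Nkg7 averaged 2956 CPM in the cluster led by Lag3 and Epha3, 2794 CPM in the S1pr5 cluster and 2640 CPM in the Ccl3 cluster, against 402 CPM in the Ccr7 cluster. Fasl averaged 605 CPM in the Ccl3 cluster and 583 CPM in the Lag3 cluster, against 6.24 CPM in the Ccr7 cluster and 1.49 CPM in the Dapl1 cluster, so it had the wider range. Of the 421 Lag3 cluster cells, 371 came from PS-5X, so its levels are close to those of 1 pool. Prf1 reached 222 CPM in the S1pr5 cluster and was at 39.1 CPM or more in every cluster. Ctsw ran from 284 to 979.6 CPM, the narrowest range of the 7 genes.

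**Figure D2:**
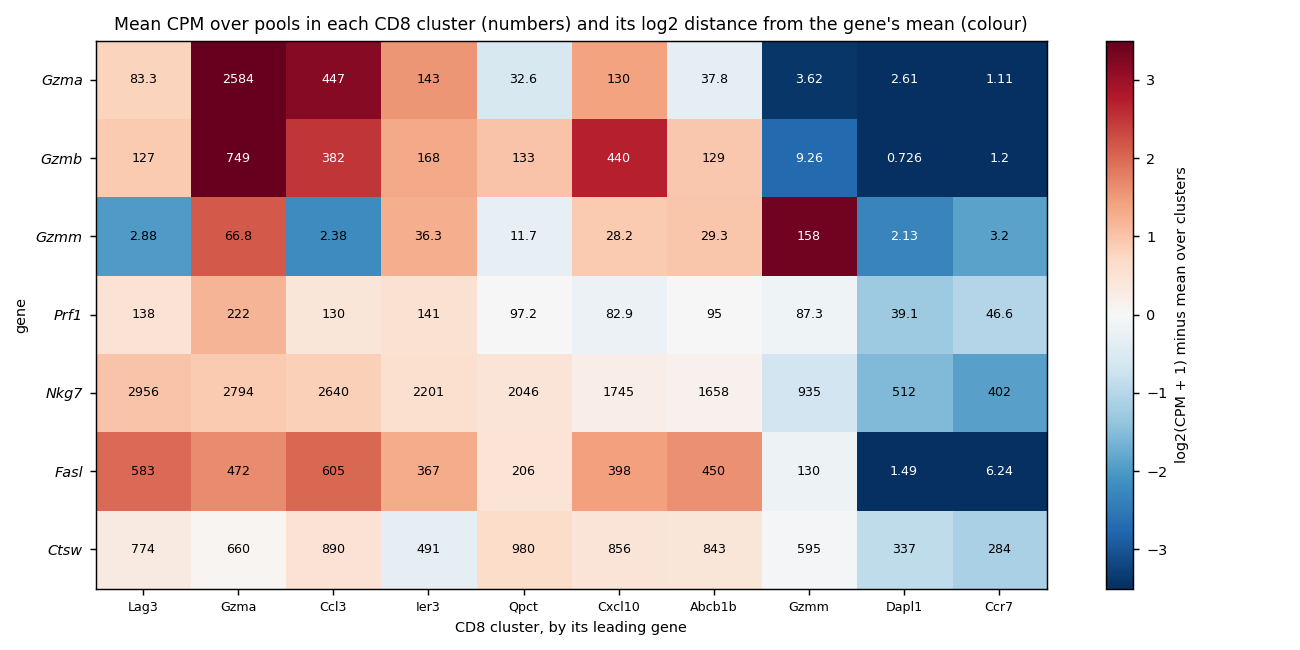
Mean CPM over pools with at least 20 cells for the 7 genes in the 10 CD8 clusters. Shading shows the log2 distance of each value from that gene's mean over clusters. Gzma and Gzmb peak in the cluster led by Gzma, S1pr5 and Cx3cr1, Gzmm in the cluster led by Gzmm, Fcgrt and Pde2a, and Fasl in the Ccl3 and Lag3 clusters. These levels describe clusters of the same cells and carry no test.

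In expanded CD8 clones 6 of the 7 genes rose and Gzmm fell. A clone is expanded where 2 or more cells of a pool carry the same receptor and a singleton where 1 cell does. All 6 pools were compared within themselves over 10800 genes, of which 31.7% were called, 16.6% higher and 15.1% lower. The median log2 change was 0.70 over the 7 genes and 0.00 over all genes.

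Gzmm had 15.1, 11.9, 11.7, 8.76, 22.6 and 34.9 scaled CPM in expanded CD8 T cells, and 50.1, 64.9, 35.7, 60.0, 75.0 and 59.6 in singletons. The highest expanded pool, PS19, was below the lowest singleton pool, PS-5X. Gzmm fell by 1.66 ± 0.13 on the log2 scale, a 3.15-fold lower level (adjusted p = 2.37e-09). Gzmb had 385, 187, 296, 344, 738 and 190.4 scaled CPM in expanded CD8 T cells, and 121, 64.1, 143, 88.9, 114 and 70.5 in singletons. Again the groups did not overlap, and WT-2 was highest among expanded cells. Gzmb rose 3.29-fold (log2 1.72 ± 0.13, adjusted p = 2.55e-09).

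Gzma had 623, 122, 159, 985, 1464 and 326 scaled CPM in expanded CD8 T cells, and 109.6, 58.3, 74.2, 98.8, 343 and 128 in singletons. It was higher in 6 of 6 pools, and the singletons of WT-2 exceeded the expanded cells of 3 pools. Gzma rose 3.73-fold (log2 1.90 ± 0.18, adjusted p = 4.74e-08). The NK marker list summed to 38.3 CPM in the expanded cells of WT-2 and to 2.92 to 7.39 CPM in those of the other pools, against 11.2 to 31.3 CPM in singletons. Its part in the Gzma level of WT-2 was not tested. The B and plasma cell marker list summed to 20.4 to 38.8 CPM in expanded cells and to 104.6 to 163.7 CPM in singletons. The part of that list in the expansion differences was not tested either.

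Fasl averaged 458 ± 32.9 scaled CPM in expanded CD8 T cells and 237 ± 40.1 in singletons (SD, n = 6 pools each), and rose 1.95-fold (log2 0.96 ± 0.07, adjusted p = 1.45e-09). Nkg7 averaged 2169 ± 141 in expanded cells and 1338 ± 172 in singletons, and rose 1.63-fold (0.70 ± 0.06, 2.95e-09). Neither gene's groups overlapped. Ctsw rose 1.27-fold (0.35 ± 0.04, adjusted p = 2.98e-06). Prf1 averaged 112 ± 19.2 in expanded cells and 91.7 ± 7.89 in singletons and rose 1.25-fold (0.32 ± 0.06, 0.000531). Prf1 was not higher in WT-1, and without the naive-type clusters it had 0.13 (adjusted p = 0.0825).

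The share of cells moved with the level. Gzmb was detected in 21.9% of expanded and 8.92% of singleton CD8 T cells after thinning, Fasl in 59.2% and 30.8%, and Gzmm in 2.82% of expanded and 6.64% of singleton cells. Counted over all cells, at least 4 of the 7 genes were detected in 25.6% of expanded and 12.1% of singleton CD8 T cells. By pool these shares ran from 18.6% to 39.9% and from 8.10% to 15.6%. The Gzmm cluster was 1.5% to 6.1% expanded by pool, and the Ccl3 cluster 51.2% to 77.5%.

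**Figure D3:**
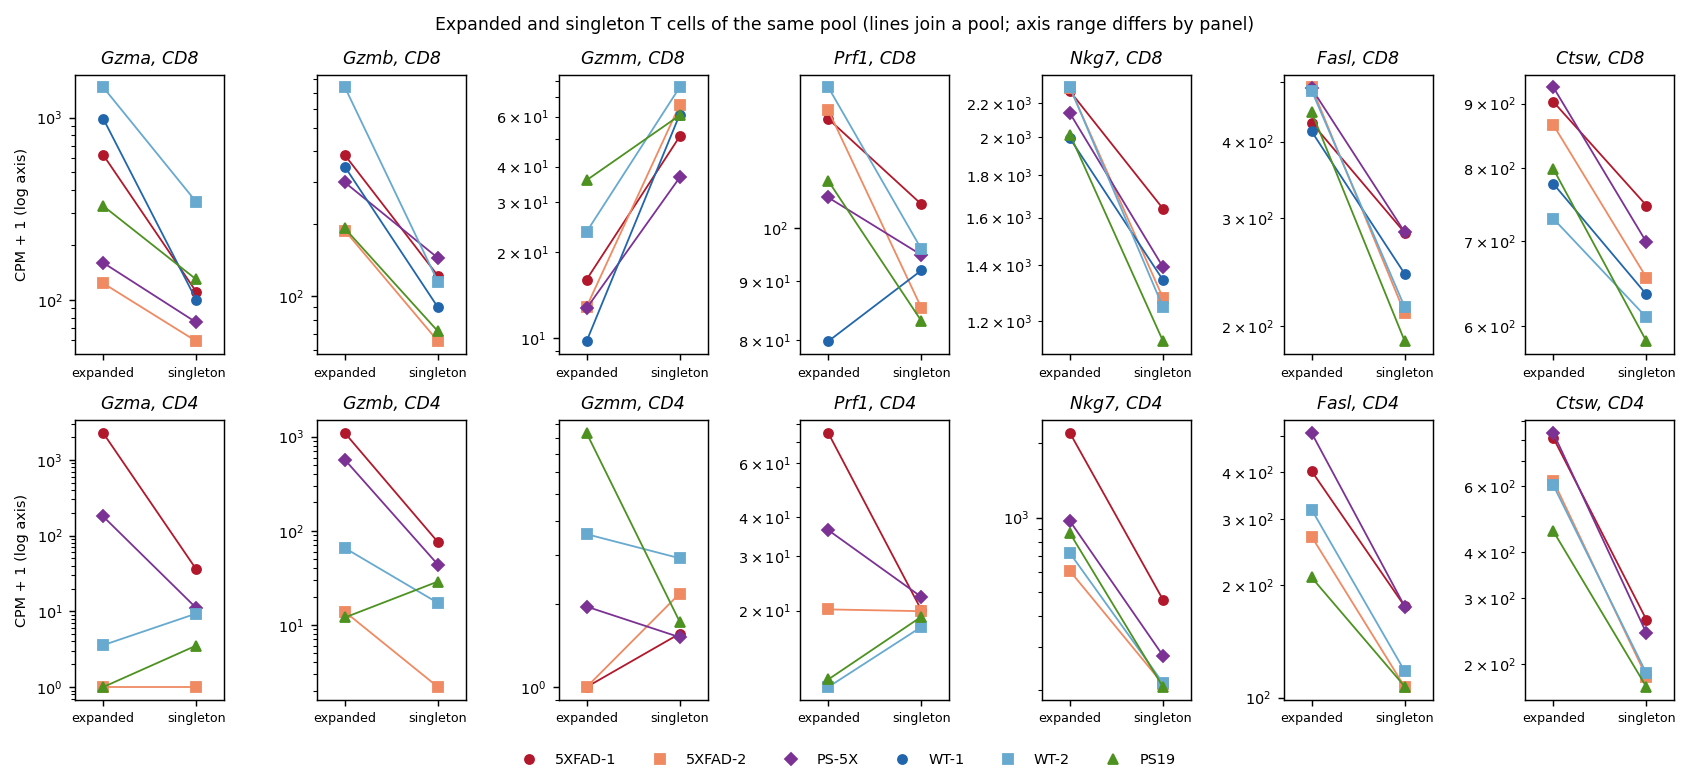
Scaled CPM in expanded and singleton cells of CD8 T cells (top row) and CD4 T cells (bottom row), with a line joining the 2 values of each pool. In CD8 T cells the lines of Gzmm run the other way from those of the other genes, except that Prf1 in WT-1 is also lower in expanded cells, and the expanded CD4 T cells of WT-1, which has 10 such cells, are not plotted.

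Among expanded CD8 T cells the differences went on with clone size for 4 genes. Clones of 5 or more cells were set against clones of 2 to 4 cells, and 4.56% of 9164 genes were called, 2.17% higher and 2.39% lower. Gzmm had 8.27, 5.14, 7.89, 0, 14.9 and 30.8 scaled CPM in large clones and 32.0, 26.2, 22.9, 14.7, 38.0 and 41.6 in small ones, lower in every pool. It fell by 1.46 ± 0.19 on the log2 scale (adjusted p = 1.16e-05). Nkg7 averaged 2443 ± 125 in large and 2050.0 ± 97.9 in small clones (SD, n = 6 pools each) with no overlap, and rose by 0.25 ± 0.05 (0.000763).

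Gzmb had 490.5, 225, 332, 738, 992 and 197 scaled CPM in large clones and 216, 139.6, 262, 152, 401 and 203 in small ones, so PS19 did not share the rise. It rose by 0.87 ± 0.13 (adjusted p = 0.000122), a call that DESeq2 did not make (adjusted p = 0.0906). Gzma had 879, 101, 169, 2082, 1923 and 273 in large clones and 164, 179, 161, 450.1, 867 and 402 in small ones, higher in 4 of 6 pools. Its rise of 0.82 ± 0.24 (adjusted p = 0.0499) held under 5 of 12 other settings. It was lost without 5XFAD-1 (0.409), without WT-1 (0.243), without WT-2 (0.172), in DESeq2 (0.889), with classes set by lineage UMIs (0.128), with doublets kept (0.0707) and without the naive-type clusters (0.0508). Fasl had 0.18 ± 0.06 (0.0933), Ctsw 0.11 ± 0.05 (0.281) and Prf1 0.03 ± 0.08 (0.945), none past the threshold.

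In 4 bins of clone size the mean Gzmm level was 54.7 CPM in singletons, 28.9 in clones of 2 to 4 cells, 19.0 in clones of 5 to 19 cells and 4.83 in clones of 20 or more. Nkg7 ran the other way, with 1272, 2027, 2319 and 2662 CPM over the same bins, and so did Fasl, with 225, 443, 488 and 539 CPM. Gzma and Gzmb were highest in clones of 5 to 19 cells (791 and 485 CPM) and had 559 and 402 CPM in clones of 20 or more. The SD over pools was 1169 there for Gzma because WT-2 alone had 2942 CPM. In those clones Gzma had 174 CPM in 5XFAD-1, 89.2 in 5XFAD-2, 105 in PS-5X, 34.8 in WT-1 and 8.87 in PS19. In clones of 2 to 4 cells the same pools had 160, 176, 153, 466 and 400 CPM, and WT-2 had 865. The bins of 5 to 19 cells came from 5 pools.

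Single large clones differed far more in Gzma and Gzmb than in Fasl. Over the 34 CD8 clones of 20 or more cells, Fasl ran from 421 to 762 CPM (1.81-fold), Ctsw from 566 to 1404 (2.48-fold), Nkg7 from 1326 to 5014 (3.78-fold) and Prf1 from 46.6 to 339 (7.28-fold). Gzmb ran from 38.6 to 2254 CPM, a 58.4-fold range. Gzma ran from 0 in 8 clones to 6007 CPM, with a median of 23.9. Gzmm had no UMI in 23 of the 34 clones.

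The largest clone, 349 cells of PS-5X with 85.4% of them in the Lag3 cluster, had 33.0 CPM of Gzma, 147 of Gzmb and 605 of Fasl. In WT-2, 3 clones of 44, 21 and 20 cells lay mostly in the S1pr5 cluster (95.5%, 95.2% and 80.0%) and had 5007.5, 3948 and 6007 CPM of Gzma and 2037, 2201 and 1877 CPM of Gzmb. The other 3 large WT-2 clones had 38.8, 71.0 and 51.5 CPM of Gzma. High Gzmb did not always come with high Gzma: in PS-5X a 29-cell clone had 2254 CPM of Gzmb and 1815 of Gzma, and a 23-cell clone had 2023 CPM of Gzmb and 6.81 of Gzma. Cells of a clone are not replicates, and these values carry no test.

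**Figure D4:**
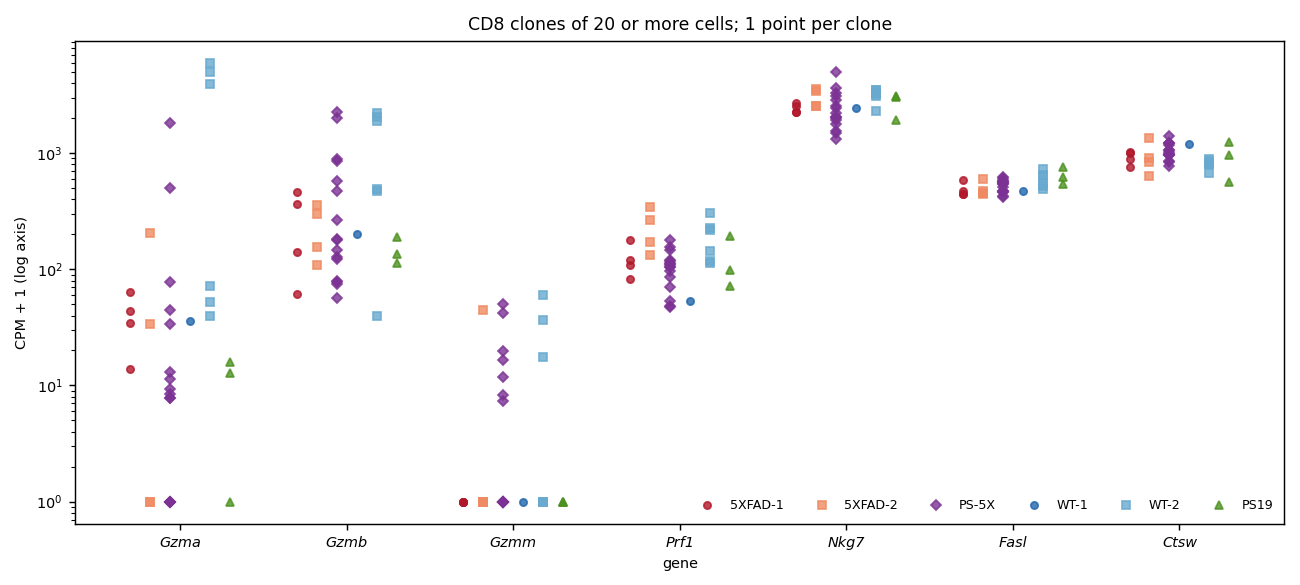
CPM plus 1 on a log axis for each of the 34 CD8 clones of 20 or more cells, by gene and marked by pool. Fasl, Ctsw and Nkg7 lie within narrow bands, whereas Gzma spreads from 0 to 6007 CPM and Gzmm is at 0 in 23 clones.

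In expanded CD4 T cells 5 of the 6 genes that could be tested rose (5 pools, WT-1 left out with 10 expanded cells). Of 9239 genes 12.3% were called and 6.04% were higher. The median log2 change was 1.76 over the 6 genes and 0.00 over all genes. Nkg7 had 2198, 607, 967, 717 and 863 scaled CPM in expanded CD4 T cells of 5XFAD-1, 5XFAD-2, PS-5X, WT-2 and PS19, and 464, 211, 275, 213 and 205 in singletons. It rose by 1.88 ± 0.11 (adjusted p = 2.39e-09), Ctsw by 1.64 ± 0.10 (2.39e-09) and Fasl by 1.30 ± 0.11 (1.32e-07). These 3 did not overlap between expanded and singleton cells and kept their call under all 13 other settings.

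Gzma and Gzmb in CD4 T cells were uneven between pools. Gzma had 2261, 0, 178, 2.58 and 0 scaled CPM in expanded CD4 T cells and 34.8, 0, 10.0, 8.35 and 2.53 in singletons. It was higher in 5XFAD-1 and PS-5X and lower in WT-2 and PS19. The fitted rise of 4.45 ± 0.55 (adjusted p = 1.87e-05) was 2.26 in DESeq2 (0.558), 2.95 without 5XFAD-1 (0.000217) and 2.16 without cells that carry another pool's receptor (0.00958). Gzmb had 1092, 12.8, 567, 64.5 and 11.0 scaled CPM in expanded cells and 74.6, 1.18, 42.5, 16.1 and 27.9 in singletons. It rose by 3.03 ± 0.37 (adjusted p = 1.21e-05), higher in 4 of 5 pools, and had 1.04 (0.257) with classes set by lineage UMIs. Prf1 had 0.76 ± 0.30 (0.111), and Gzmm gave 0 to 2 UMIs in the expanded cells of a pool and was not tested. The summed Cd8a and Cd8b1 level in expanded CD4 T cells was 18.5, 249, 410.2, 64.5 and 18.3 CPM, so it was highest in PS-5X and its part in these levels was not tested.

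The expansion effect in CD8 T cells was smaller than that in CD4 T cells for 3 of 7 genes, by a test of the difference itself (1.1% of 10791 genes called, 0.63% lower). The CD8 minus CD4 difference was -1.27 ± 0.10 on the log2 scale for Ctsw (adjusted p = 5.46e-08) and -1.15 ± 0.12 for Nkg7 (7.63e-06), both kept under all 14 other settings. For Gzma it was -3.12 ± 0.53 (adjusted p = 0.00299). That call was lost without the Gzma-marked CD4 cluster (-1.28, 0.372), without cells carrying another pool's receptor (-1.03, 0.468), without 5XFAD-1 (-1.83, 0.0713) and in DESeq2 (-0.86, 0.906). Gzmb had -1.54 ± 0.39 (0.0547).

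Most Gzma in CD4 T cells came from 1 small cluster of 89 cells, led by 5830405F06Rik, Gzma and Gzmb, of which 81 cells were in 5XFAD-1 and 7 in WT-1. In 5XFAD-1 it made up 18.2% of CD4 T cells and held 99.0% of their Gzma UMIs, 93.6% of Gzmb, 64.8% of Prf1, 63.1% of Nkg7, 47.3% of Ctsw and 38.1% of Fasl UMIs. Without it, CD4 T cells of 5XFAD-1 had 9.58 CPM of Gzma, against 769 CPM with it. Of the 81 cells, 75 fell into 10 clones, the largest with 43 cells in the cluster, and 68 carried a receptor found in another pool. In WT-1 its 7 cells held 95.5% of Gzma and 92.3% of Gzmb UMIs. Whether the WT-1 cells came from the WT-1 mice was not tested.

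Outside that cluster PS-5X stood highest, with 45.5 CPM of Gzma and 152 CPM of Gzmb in CD4 T cells, beside 9.58 and 32.7 CPM in 5XFAD-1 and 0 and 6.62 CPM in 5XFAD-2, against 4.94 and 12.9 CPM in WT-1, 6.94 and 20.3 in WT-2 and 2.12 and 24.3 in PS19. A 52-cell CD4 clone of PS-5X had 1159.7 CPM of Gzmb and 285 of Gzma. A 45-cell CD4 clone of 5XFAD-1 had 1745 CPM of Gzmb and 4819 of Gzma, and a 27-cell CD4 clone of WT-2 had 0 and 10.4 CPM. The large CD4 cluster led by Tnfrsf4 and Cd40lg, genes of helper memory cells, had 596 CPM of Nkg7, 394 of Ctsw and 264 of Fasl, beside 17.5 CPM of Gzma.

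In amyloid pools (PS-5X and both 5XFAD pools) against pools without amyloid (PS19 and both WT pools), no gene of the 7 passed the threshold in CD8, CD4 or γδ T cells. In CD8 T cells edgeR called 0 of 11639 genes (0%), while 1223 genes had an unadjusted p under 0.05 and DESeq2 called 73 genes, Ctsw among them (log2 0.28, adjusted p = 0.0494). These comparisons had 3 residual degrees of freedom. Below, some genes are said not to overlap between amyloid and other pools, or to go the same way in all pairs. The share of all genes that do so is not given here, so such statements are a description only.

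Gzmm in CD8 T cells averaged 35.7 ± 10.5 scaled CPM in amyloid pools and 55.9 ± 4.45 in the others (SD, n = 3 pools each), without overlap. Its log2 difference was -0.71 ± 0.17 (unadjusted p = 0.00225, adjusted p = 0.223), lower in 3 of 3 pairs of pools matched by run and tau, at -0.45 for 5XFAD-1 over WT-1, -0.38 for 5XFAD-2 over WT-2 and -1.19 for PS-5X over PS19. With the replicate number as a block it passed the threshold (-0.71, adjusted p = 0.0248), and so it did without 5XFAD-2 (-0.88, 0.0308). With the block and without WT-1 it did not (-0.81, 0.0895). The NK marker list, all 7 genes detected, summed to 14.8, 14.2 and 7.52 CPM in the CD8 T cells of the amyloid pools and to 27.2, 25.5 and 25.1 CPM in the others. Its part in the Gzmm difference was not tested.

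Ctsw in CD8 T cells averaged 808 ± 42.9 scaled CPM in amyloid pools and 665 ± 15.8 in the others, Nkg7 1806 ± 131 and 1493 ± 114, and Fasl 354 ± 37.5 and 282 ± 27.8 (SD, n = 3 pools each). Each was higher in 3 of 3 pairs without overlap of the groups, with log2 differences of 0.28 ± 0.08 for Ctsw (adjusted p = 0.277), 0.28 ± 0.09 for Nkg7 (0.350) and 0.33 ± 0.11 for Fasl (0.356). In the pair of the separate run, 5XFAD-2 over WT-2, they came to 0.19, 0.07 and 0.04. The naive-type clusters made up 5.99%, 18.8% and 13.8% of CD8 T cells in the amyloid pools and 16.4%, 23.9% and 30.0% in the others, and their part in these differences was not tested.

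Gzma and Gzmb went opposite ways in different pairs. Gzma in CD8 T cells had 0.19 for 5XFAD-1 over WT-1, -2.85 for 5XFAD-2 over WT-2 and -0.62 for PS-5X over PS19, and -1.03 ± 0.43 in the fit (adjusted p = 0.450). Gzmb had 0.68, -1.23 and 1.10 in the same order, and 0.13 ± 0.36 in the fit (0.938). The S1pr5 cluster, where both are highest, made up 4.37% of the CD8 T cells of 5XFAD-2 and 17.9% of those of WT-2, and its part in this pair was not tested. Prf1 had 0.12 ± 0.09 (adjusted p = 0.724).

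**Figure D5:**
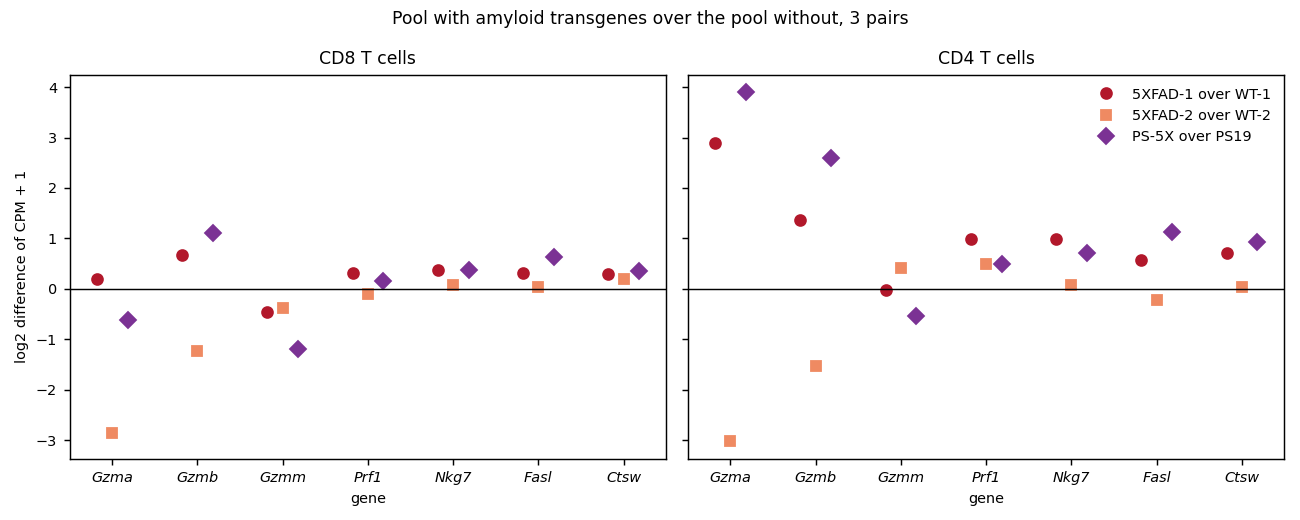
Log2 difference of scaled CPM in CD8 and CD4 T cells for 3 pairs of pools: 5XFAD-1 over WT-1, 5XFAD-2 over WT-2 and PS-5X over PS19. In CD8 T cells Nkg7, Fasl and Ctsw lie above 0 and Gzmm below 0 in all 3 pairs, while Gzma and Gzmb fall on both sides.

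In CD4 T cells edgeR called 0 of 6 tested genes in amyloid pools (0.00989% of 10114 genes called, 611 with an unadjusted p under 0.05, and 0 of the 6 genes by DESeq2). Prf1 averaged 27.6 ± 7.21 scaled CPM in amyloid pools and 16.8 ± 0.853 in the others, the one gene of the 6 whose groups did not overlap (log2 0.72 ± 0.20, adjusted p = 0.733). Gzma had 3.38 ± 1.42 (0.790), Gzmb 1.85 ± 1.01 (0.882), Nkg7 0.74 ± 0.37 (0.855), Fasl 0.58 ± 0.25 (0.809) and Ctsw 0.61 ± 0.20 (0.735). In 5XFAD-2 over WT-2, Gzma had -3.02 and Gzmb -1.53, against 2.89 and 1.36 in 5XFAD-1 over WT-1 and 3.90 and 2.60 in PS-5X over PS19. Without 5XFAD-2, 5 genes passed the threshold: Gzma (4.34, adjusted p = 0.0139), Gzmb (2.57, 0.036), Nkg7 (1.10, 0.0346), Fasl (0.89, 0.0144) and Ctsw (0.85, 0.00992). The share of all genes called without 5XFAD-2 is not given here, so this count cannot be set against it.

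In γδ T cells edgeR called 0 of the 4 genes tested in amyloid pools (0.0923% of 8666 genes called, 458 with an unadjusted p under 0.05, and 0 of the 4 by DESeq2). Fasl averaged 50.2 ± 2.57 scaled CPM in amyloid pools and 24.0 ± 9.99 in the others without overlap (log2 0.88 ± 0.23, adjusted p = 0.340). Prf1 had 0.66 (0.989), Ctsw 0.62 ± 0.20 (0.542) and Nkg7 0.02 (adjusted p = 1).

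In pools with tau (PS-5X and PS19) against the 4 without, edgeR called 0 of the tested genes among the 7. It called 0% of genes in CD8 T cells (759 with an unadjusted p under 0.05), 0% in CD4 (497) and 0.219% in γδ T cells (518), and DESeq2 called 0 of them in each. Gzma had -1.15 ± 0.48 in CD8 (adjusted p = 0.753) and -3.25 ± 1.61 in CD4 T cells (0.947). With the replicate number as a block the CD4 value of Gzma was -4.15 (adjusted p = 0.0265), and with the block and without WT-1 it was -4.33 (0.120).

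The amyloid difference did not separate CD8 from CD4 T cells past the threshold for any of the 7 genes (0.0182% of genes called by edgeR, 588 with an unadjusted p under 0.05, and 0 of the 7 by DESeq2). Gzma had a CD8 minus CD4 difference of -4.00 ± 1.21 (adjusted p = 0.620). Without the Gzma-marked CD4 cluster it was -3.00 (0.00821), and without cells that carry another pool's receptor -4.71 (0.037). The cluster was picked by its Gzma, so the first of these p-values is no support for a difference. Nor did the expansion effect in CD8 T cells differ between amyloid and other pools past the threshold (0.102% of genes called, 887 with an unadjusted p under 0.05, and 0 of the 7 genes by DESeq2). Gzmb was nearest, with -0.73 ± 0.20 (adjusted p = 0.269).

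Other genes of the killing pathway were followed through 5 lists. Their counts in expanded CD8 T cells stand beside 16.6% of all genes called higher and 15.1% lower. In expanded CD8 T cells, Gzmk, the one other granzyme tested, rose by 1.15 ± 0.08 on the log2 scale. Of 13 genes of granule loading, transport and release, 7 rose and 1 fell. They include Stx11, a syntaxin of granule fusion (0.97 ± 0.12), and Lyst, the lysosome-trafficking regulator (-0.65 ± 0.07). Of 6 tested granzyme activators and inhibitors 5 rose, among them Serpinb1a (1.06 ± 0.23) and Serpinb9, which inhibits granzyme B (0.50 ± 0.09), and Ctsl fell (-0.98 ± 0.22). Of 11 other death ligands, receptors and adaptors 4 rose and 1 fell, and Tnf (0.96 ± 0.08) and Tnfsf10 (0.88 ± 0.09) had the largest changes. All 8 transcription factors of the list rose, with Bhlhe40 (1.29 ± 0.07), Prdm1 (1.18 ± 0.09) and Zfp683 (1.15 ± 0.10) ahead.

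In expanded CD4 T cells the same 8 factors rose, with Zfp683 (2.30), Zeb2 (2.13) and Eomes (1.66) ahead, while the median of the 13 loading and release genes was 0.15 and none of them was called. Gzmk rose by 2.02 ± 0.42 and Ctsl fell by 2.17 ± 0.37. In CD8 against CD4 T cells the T-box factor Eomes rose by 3.35 ± 0.23, Zeb2 by 1.99 and Tbx21 by 0.51. The inhibitor Serpinb1a fell by 1.64, against most of its list. Of 6 tested activators and inhibitors 4 rose and 2 fell there. Of the 8 transcription factors 4 rose and 1 fell, where 29.3% of all genes were called. In γδ against CD8 T cells Eomes fell by 7.60, Zfp683 by 3.12 and Tbx21 by 1.84. Serpinb1a rose by 6.94 ± 0.19, the ligand genes Tnfsf14 by 2.42, Lta by 2.38 and Tnf by 2.22. Of the 13 loading and release genes 8 rose and 1 fell. Of 6 tested activators and inhibitors 1 rose and 4 fell, and of the 8 transcription factors 2 rose and 5 fell. Of the 11 other death ligands, receptors and adaptors 5 rose and 5 fell, where 51.6% of all genes were called. In amyloid against other CD8 T cells, where edgeR called 0% of all genes, the medians of the lists were 0.01 for loading and release, -0.04 for activators and inhibitors and 0.22 each for the other death genes and the transcription factors.

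Likeness of pattern was measured by the correlation of log CPM over 55 sums of a pool and a CD8 cluster, among 5817 genes. These sums share libraries and depth, so the values are a description. Nkg7 was nearest to Itgb1 (0.97), Fasl to Ifng (0.96), Gzmb to Lgals3 (0.93), Ctsw to Ppp3cc (0.93), Gzma to Itgb2 (0.90), Prf1 to Srpr (0.89) and Gzmm to 1700025G04Rik (0.79). Within the 7, Gzmb and Nkg7 had 0.91, Nkg7 and Fasl 0.90 and Gzma and Gzmb 0.85. Gzmm had 0.24 to 0.46 with the other 6.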

How the data were processed

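The authors ran Cell Ranger 6.0.1 per the submitters' processing notes, which list GRCm38 and mm10 as builds and give neither a role. The deposited matrix holds counts, the UMIs of each gene in each barcode, and the deposited receptor tables hold counts of UMIs for each contig and of cells for each clonotype, per the file headers. Whether the pools were thinned to equal depth when they were joined is not given in the sources used here.

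Of 18374 barcodes, those with at least 500 genes and no more than 10% of UMIs from mitochondrial genes passed. Scrublet scores for doublets were computed in scanpy 1.11.5 and the highest-scoring barcodes removed at 0.8% per 1000 barcodes, since its own threshold marked 2 to 9 barcodes a pool. Clusters came from the Leiden method at resolution 1.0 (leidenalg 0.10.2) on 30 components and 15 neighbours of 1995 variable genes, without the 7 genes. Clusters were named by at least 3 lineage markers. Naive-type clusters had Dapl1 and Actn1 among their 10 leading genes.

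UMIs were summed per pool and class (at least 20 cells) and tested by the quasi-likelihood method of edgeR 4.0.16 (R 4.3.3) after filterByExpr and TMM, Benjamini-Hochberg over all genes, with pool as block for classes and clones, and with tau and amyloid in 1 fit for genotype. With pool as block, the biological coefficient of variation came to 7.89% over the classes, the spread left after pool effects. In the genotype fits, which compare pools, it came to 10.7% in CD8, 13.2% in CD4 and 12.6% in γδ T cells. P-values of class and clone tests measure how within-pool differences vary from pool to pool. Those of genotype measure the spread between pools. The fits were also run on simulated data, and the outcome is not given here. Per the labels, replicate number 2 marks the separate sequencing run, so it was used as a block in an alternative. Deviations of same-numbered pools from their genotype means correlated at 0.40 in CD8, 0.30 in CD4 and 0.10 in γδ T cells. Other alternatives were DESeq2 1.42.0, no filter on low counts, classes set by lineage UMIs, doublets kept, other clone cut-offs, thinning to 1000 UMIs and each pool left out. Leaving out the Gzma-marked CD4 cluster, and leaving out cells with another pool's receptor, were added after the data were seen. The cluster was picked by its Gzma, so fits without it show how much rests on those cells and are no test of Gzma. Intervals of single values cover counting error only.

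The 7 genes and the lists were chosen with earlier results of these data known. The named genes are the 7 in every comparison and at most the 3 called genes with the largest change per list.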

Additional observations from a re-analysis of the deposited data

Results flagged for a closer look

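The expansion effect differed between CD8 and CD4 T cells by a test of the difference itself for 3 genes. The CD8 minus CD4 difference in log2 change was -3.12 for Gzma, -1.15 for Nkg7 and -1.27 for Ctsw. The Gzma value rests on 5XFAD-1: it was -1.83 without that pool (adjusted p = 0.0713).

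A cluster of 403 cells led by Fcer1g, Ncr1 and Klra7 belonged to no named class and entered no comparison. It had 216 CPM of Gzma, 297 of Gzmb, 51.7 of Gzmm, 112.5 of Prf1, 1557 of Nkg7, 326 of Fasl and 970.1 of Ctsw. The γδ class had 2.86, 9.42, 1.01, 16.3, 55.0, 45.1 and 223 CPM of the same genes. Of its cells, 197 carried a listed receptor β chain or a clone, and these had 45.8 CPM of Gzma and 191 of Gzmb.

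No pool stood apart by Dixon's test at the 95% level in any of the 42 groups tested, each the within-pool log2 differences of 1 gene in 1 comparison, where chance alone gives about 1 in 20. Levels per pool were not tested in this way.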

How the results depend on the processing

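Counts below are of the 7 genes called. Matching counts over all genes are given here only for the replicate block. The other counts cannot be set against all genes and are no result about the 7. In γδ against CD4 T cells, classes set by lineage UMIs gave 3 calls (1 higher, 2 lower), and Gzmm (2.79, adjusted p = 0.000838), Prf1 (0.48) and Ctsw (0.20) reversed, while Gzmb (-0.09) and Nkg7 (-0.54) lost their call. Of the cells so set as γδ, 18.3% lay in the NK-marker cluster. DESeq2 gave 2 calls in large against small clones and 1 for amyloid in CD8 T cells. With no filter on low counts there were 3 calls for amyloid in CD8, 6 in CD4 and 2 in γδ T cells, 1 for tau in CD8 and 3 in CD4, 4 for the CD8 minus CD4 amyloid difference and 2 for expansion by amyloid. The cause was not tested. For amyloid in γδ T cells, classes set by lineage UMIs gave 2 calls, doublets kept 1 and the replicate block without WT-1 1. The CD8 minus CD4 amyloid difference had 1 call without the Gzma-marked CD4 cluster and 1 without cells with another pool's receptor, both Gzma. The CD8 minus CD4 expansion difference had 5 calls without the naive-type CD8 clusters.

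The replicate block, which pairs the pools of each run, gave 1 call for amyloid in CD8 T cells (Gzmm; 240 of all genes, against 0 without it) and 1 for tau in CD4 (Gzma). It changed no other call of the 7 genes under the same cells. Over all genes it gave 6 calls for amyloid in CD4 (against 1), 26 in γδ (against 8), 56 for tau in CD8 (against 0) and 13 in CD4 (against 0).

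With 1 pool left out at a time, calls numbered 5 to 7 in CD8 against CD4, 7 in γδ against CD8, 5 to 6 in γδ against CD4, 7 in expanded CD8, 3 to 4 in large clones, 5 to 6 in expanded CD4, 2 to 4 for the expansion difference and 0 for tau. They numbered 0 to 1 for amyloid in CD8 (1 without 5XFAD-2), 0 to 5 in CD4 (5 without 5XFAD-2), 0 to 3 for the amyloid difference and 0 to 1 for expansion by amyloid (Gzmb -1.05 without PS19, adjusted p = 0.0229).

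Shares of CD8 T cells fell with depth by construction. At 1000 UMIs they were 2.93% for Gzmm, 9.28% for Prf1, 71.9% for Nkg7, 25.6% for Fasl and 47.8% for Ctsw. Counting cells with 2 or more UMIs gave 7.89% for Gzmb, 1.38% for Gzmm, 2.41% for Prf1, 70.5% for Nkg7, 16.7% for Fasl and 40.5% for Ctsw. Of 1286 values of single genes under another setting, 1195 kept their call or lack of one, 74 of them with a change of sign but no call under either setting, 40 lost a call, 48 gained one and 3 reversed. WT-1 had the fewest cells, with 41 γδ T cells and 10 expanded CD4 T cells, and limits those values most.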
